A study of Homo sapiens with 2 samples.

Results

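The genes described here encode the aminoacyl-tRNA synthetases. The 36 members were taken by gene symbol: a peak belonged to a member when its Ensembl gene identifier mapped to that symbol in GENCODE release 29, which uses the older symbols without a final 1 (MARS for MARS1). All 36 had peaks in each library, out of 20048 gene identifiers in the peak lists. They comprise 20 genes of cytosolic enzymes, 2 of which (GARS and KARS) encode enzymes used in both compartments, and 16 genes of mitochondrial enzymes. The rule used names and no measured value, although members and lists were chosen with earlier results of these data known. The data are lists of RNA peaks from 2 libraries, replicates 1 and 2 of a single group labelled TRACER, a word whose meaning the labels do not give. The cells were HEK293T, an established line from human embryonic kidney, exposed to doxycycline at 3 ug/mL for 24 hours, and cytoplasmic RNA went into a microRNA-type library. The stated aim was to find elements within RNAs bound to CCR4-NOT, a protein complex known for shortening poly(A) tails. No untreated, input or control library was analysed here, so conditions could not be compared, and the amount of an mRNA in the cells cannot be told apart from how often it was captured. Whether each replicate had its own culture is not stated, and a difference between them may therefore be technical only.

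Each aminoacyl-tRNA synthetase joins an amino acid to its tRNA, and the charged tRNA then goes to the ribosome. The enzymes fall into class I and class II by the fold of their catalytic domain, and several cytosolic ones are held together with scaffold proteins in the multi-synthetase complex. Most mitochondrial enzymes have nuclear genes of their own and are imported after translation in the cytoplasm, while EPRS fuses the glutamate and proline enzymes in 1 chain.

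Peaks lay mainly in coding sequence (CDS), and the windows below show 1 such place in each of 8 members, the one whose smaller count of the 2 libraries is the highest in its CDS. A region is called repeated when peaks of both libraries overlapped there by at least 1 nt on the same strand under the same gene. Each window is 30 nt of the spliced GENCODE 29 transcript on GRCh38, with 15 nt ahead of its summit and 14 nt behind it, written 5′ to 3′. Capitals mark codons for aspartate, glutamate and lysine in the reading frame, since these codons are counted at the summits further on. The 8 are not strictly the members with the highest such counts. GARS (25 and 30 reads) and TARS2 (20 and 32) are not shown, although each has a smaller count above that of MARS (19 and 22). The GARS window would hold 1 capital codon, and the MARS window holds 4. The windows are thus no measure of how common these codons are.
SARS, chr1:109230929-109230958, plus strand: AAGtactctcatgtgGACctggtggtgatg
YARS, chr1:32780147-32780176, minus strand: ctgcagGACaggctggtagtggtgctgtgc
TARS, chr5:33445371-33445400, plus strand: cAAAGAAggatctggaGATggaggtcgagc
IARS, chr9:92251854-92251883, minus strand: tGAAaatgggatgGAGGATtgtgtcatggc
AARS, chr16:70265579-70265608, minus strand: gactgattgctGAAGAGAAGggcctggtgg
EPRS, chr1:220030441-220030470, minus strand: aaAAGcaaGATgttgggAAAtttgttGAGc
FARSA, chr19:12930230-12930259, minus strand: ggagcGAGctgaggAAGaggAAGctgttgg
MARS, chr12:57504299-57511726, plus strand, spliced across an intron: gctgGAGAAGcgactgGAGGAGtggttggg

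The next windows show repeated peaks in the 3′ UTR of members whose annotated full-length transcript has its 3′ UTR there. They hold none of the motifs searched for below, so nothing is in capitals.
IARS2, chr1:220147729-220147758, plus strand: aggtaatgagtggatgagtaaatggtggag
YARS, chr1:32775854-32775883, minus strand: ggaagcagcgggtttggactctttattcgg
IARS, chr9:92210639-92210668, minus strand: attcaaatgggattgattagtcaagtaact

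The last windows show summits at the start codon, in capitals.
EPRS, chr1:220046386-220046415, minus strand: gacaggtggaccagcggactggtggagATG
LARS, chr5:146177663-146182514, minus strand, spliced across an intron: cacagtcggctgggcggtgcaATGgcggaa
MARS, chr12:57488082-57488111, plus strand: cacggcgaaATGagactgttcgtgagtgat
PARS2, chr1:54759145-54759174, minus strand: gtgccagggtgtcATGgaagggctgctgac

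In all, the members held 456 peaks in replicate 1 and 448 in replicate 2, of 100792 and 109413. In every pair of values below, replicate 1 comes before replicate 2. Reads summed over the members' peaks came to 4085 and 4725, which is 0.251% and 0.277% of the reads in all peaks. These sums are not sequencing depth. The median peak held 7 and 8 reads and was 25 and 28 nt wide, and the largest held 67 and 80 reads. Of the members' peaks, 61.6% (exact 95% binomial interval 57 to 66.1) and 63.6% (59.0 to 68.1) overlapped a peak of the other library, against 59.0% and 54.1% of peaks of all protein-coding genes. Repetition went with height. Of member peaks with 3 or 4 reads, 35.7% and 36.6% were repeated, against 33.4% and 26.9% of such peaks of all protein-coding genes. With 5 to 9 reads the shares were 60.9% and 58.7%, against 63.4% and 54.5%. With 10 to 19 reads they were 85.0% and 77.1%, against 87.3% and 81.5%. With 20 or more they were 97.1% and 100%, against 97.5% and 96.2%. The intervals cover counting error only. As a check of the label, all 4 HEK293T markers (LIN28B, IGF2BP1, VIM and PAX2) had peaks in both libraries, and of 8 markers of other cell types only MYH6 and GFAP had any, with 3 reads each in replicate 2.

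Genes of cytosolic enzymes carried more peak reads per length than genes of mitochondrial enzymes. The median over genes was 31.1 and 34.9 reads per kb of exon for the cytosolic class, against 7.75 and 12.8 for the mitochondrial class, and 5.24 and 6.70 for all 13209 protein-coding genes with a peak. The ratio of the class medians was 4.01 in replicate 1 and 2.73 in replicate 2. The classes overlapped in part: 1 of 16 mitochondrial genes, IARS2, lay above the cytosolic median in each library, and 19 and 17 of 20 cytosolic genes lay above the mitochondrial median. All 20 cytosolic genes in replicate 1 and 19 in replicate 2 lay above the median of all protein-coding genes, as did 10 of 16 mitochondrial genes in each.

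Among the cytosolic enzymes, SARS, the serine enzyme, had the highest level, with 307 and 422 reads or 80.03 and 110.0 reads per kb. FARSA, the catalytic subunit of the phenylalanine enzyme, had 133 and 244 reads (54.6 and 100.2 per kb). Its partner subunit FARSB had 74 and 105 reads (22 and 31.2 per kb), so both libraries put FARSA above FARSB. GARS, the glycine enzyme, had 237 and 316 reads (57.1 and 76.1 per kb). AARS, the alanine enzyme, had 247 and 263 reads (54.9 and 58.5 per kb). The 2 libraries place SARS first, while the order of FARSA, GARS and AARS changes between them. TARS (threonine) had 252 and 313 reads (44.1 and 54.7 per kb) and YARS (tyrosine) had 361 and 372 reads (44.0 and 45.3 per kb). These levels divide by all annotated exons of a gene, and the order of genes depends on that length. Per kb of the representative transcript (the longest CDS, then the longest transcript), SARS stayed first with 163 and 224. YARS (111 and 115) and TARS (99.9 and 124) then lay above AARS (71.0 and 75.6). The genes outside the complex that followed were NARS (asparagine) with 124 and 122 reads, WARS (tryptophan) with 110 and 125, HARS (histidine) with 86 and 79, CARS (cysteine) with 84 and 87 and VARS (valine) with 32 and 39 reads. VARS had 5.26 and 6.41 reads per kb, the lowest level of the class.

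The 8 enzymes of the multi-synthetase complex spanned a narrower range. EPRS had 260 and 202 reads (47.7 and 37.1 per kb), IARS (isoleucine) had 303 and 293 (40.9 and 39.6 per kb) and MARS (methionine) had 224 and 284 (31.9 and 40.4 per kb). Per kb of the representative transcript MARS came first of the 8 with 77.1 and 97.8, above IARS (65.1 and 62.9) and EPRS (51.9 and 40.3). DARS (aspartate) had 149 and 131 reads, QARS (glutamine) 142 and 175, LARS (leucine) 150 and 148, RARS (arginine) 102 and 102, and KARS (lysine) 57 and 82. Median levels were 31.0 and 34.9 reads per kb for the 8 genes of the complex, and 37.1 and 38.2 for the 12 cytosolic genes outside it, so the difference between the medians was small beside the range within either group. By structural class, medians were 14 and 16.3 reads per kb for the 18 class I genes and 21.2 and 26.7 for the 17 class II genes, with EPRS left out because it holds both.

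Of the mitochondrial enzymes, IARS2 (isoleucine) stood highest with 158 and 198 reads, or 37.9 and 47.5 reads per kb. By the mean of both libraries the next were YARS2 (tyrosine) with 41 and 53 reads (19.1 and 24.6 per kb), TARS2 (threonine) with 67 and 109 (16.4 and 26.7 per kb), NARS2 (asparagine) with 67 and 56 (21.2 and 17.8 per kb) and PARS2 (proline) with 44 and 28 (18.7 and 11.9 per kb). IARS2 lay above all 4 in both libraries. Their order changed between libraries, and in replicate 2 AARS2 lay above NARS2 and PARS2 at 17.9 per kb. The remaining genes were AARS2 with 42 and 77 reads, LARS2 with 73 and 98, HARS2 with 30 and 28, EARS2 with 24 and 22, RARS2 with 19 and 14, FARS2 with 14 and 11, MARS2 with 17 and 41 and WARS2 with 13 and 25 reads. CARS2 had 9 and 13 reads, SARS2 8 and 45, and VARS2 25 and 3, so these 3 lacked 10 reads in at least 1 library. CARS2 and VARS2 were also the members without a repeated region, while all 33 members with 10 reads in both libraries had one, as did 97.7% of such protein-coding genes. For WARS2 it was a single intronic region with 4 and 3 reads, at a place where the pseudogene RBMX2P3 is also annotated.

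**Figure D1:**
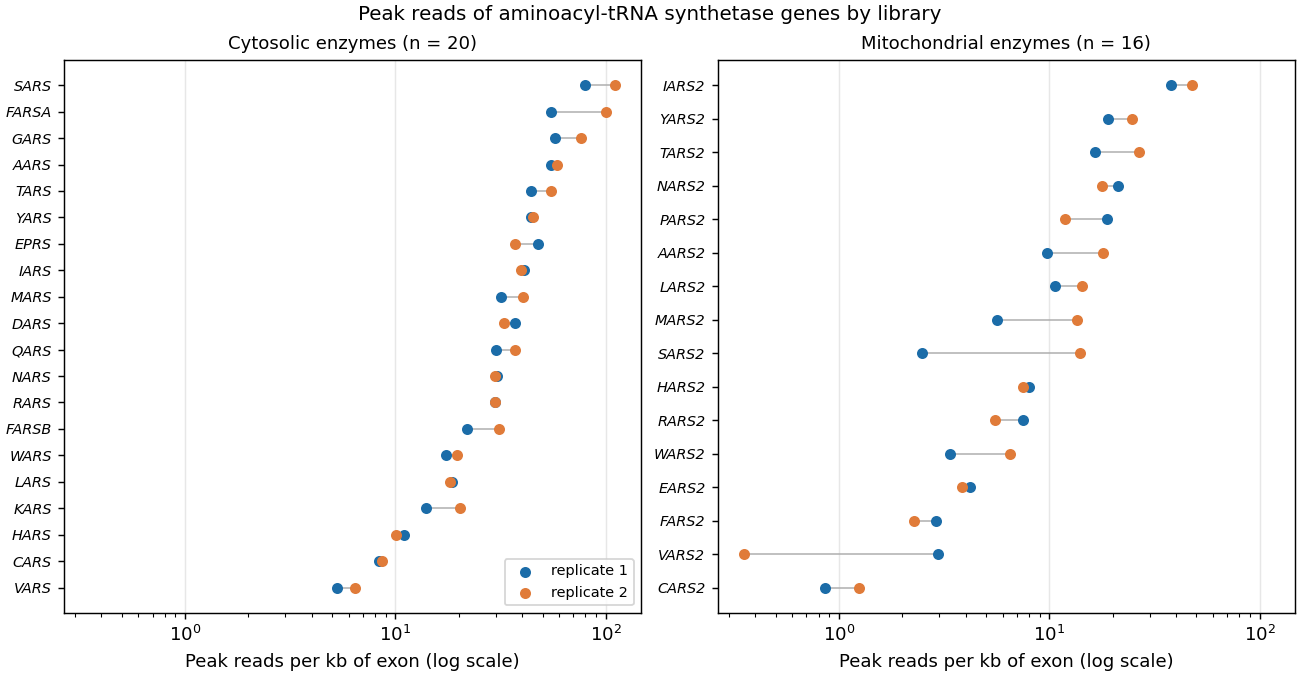
Peak reads per kb of exon (log scale) for each member, cytosolic enzymes on the left and mitochondrial enzymes on the right, ordered by the mean of both libraries. Blue and orange points are replicates 1 and 2. SARS tops the cytosolic panel at 80.03 and 110.0 reads per kb and IARS2 the mitochondrial panel at 37.9 and 47.5, while VARS2 shows the widest gap between libraries.

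After scaling to the reads in all peaks, 6 of the 33 members with at least 10 reads in both libraries differed by over 1.5 times between replicates, against 26.5% of the 8890 protein-coding genes with as many reads. In replicate 2 relative to replicate 1, FARSA was 1.75-fold, AARS2 1.75-fold, MARS2 2.30-fold, TARS2 1.55-fold and WARS2 1.83-fold higher, and PARS2 stood at 0.606 of its level. Of these 6 genes, 5 belong to the mitochondrial class, whose counts are low.

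Where the peaks fell depended on how overlapping isoforms were read. GENCODE lists several isoforms for most members, and 22 of the 36 (61.1%) have at least 1 isoform marked for nonsense-mediated decay (NMD), the pathway that degrades mRNAs with an early stop codon, against 43.5% of protein-coding genes with 10 reads in both libraries. In such an isoform the bases after the early stop count as 3′ UTR although they are CDS in the full-length transcript. The 36 members were not held to the minimum of 10 reads, and over all 13209 protein-coding genes the share with an NMD isoform was 42.2%. Members also had more annotated isoforms, with a median of 10.5 against 8 for protein-coding genes with 10 reads in both libraries. No allowance was made for this. When a summit in the 3′ UTR of any isoform was called 3′ UTR, 34.9% and 36% of the members' reads fell in 3′ UTRs and 57.5% and 56.7% in CDS. When the CDS of any isoform was taken first, 6.63% and 6.10% fell in 3′ UTRs and 85.8% and 86.6% in CDS. On 1 representative transcript per gene (the longest CDS, then the longest transcript), the shares were 5.998% and 5.40% in the 3′ UTR and 85.4% and 86.0% in the CDS. All protein-coding genes had 57.2% and 59.03% of reads in the representative CDS.

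The CDS makes up 74.6% of the members' representative transcripts and 49.4% of those of all protein-coding genes. The share of reads in the CDS was thus 1.15 times its share of length for the members and 1.18 times for all protein-coding genes. It was 1.18 times for cytosolic genes and 0.924 times for mitochondrial genes, or 0.987 times for the mitochondrial genes without IARS2. These shares of reads count all reads of a gene, while the shares of length count only exons of the representative transcript. Reads outside those exons were 4.28% and 4.19% of member reads, against 16.7% and 14.6% for all protein-coding genes. The ratios of the members and of all protein-coding genes are therefore not on equal terms. The members had the higher CDS share of reads, and a larger part of their transcripts is CDS. Whether the larger part accounts for the higher share was not tested. In 29 of 33 members over 50% of reads lay in the representative CDS in both libraries (all 20 cytosolic and 9 of 13 mitochondrial), against 47.2% of protein-coding genes. A repeated CDS peak was found in 32 of 33, all but WARS2, against a background of 78.1%.

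Of 266 repeated regions, 217 belonged to cytosolic and 49 to mitochondrial genes. By the representative transcript, 193 of 217 cytosolic regions lay in CDS, 7 in the 3′ UTR, 8 in the 5′ UTR and 9 outside its exons. The mitochondrial regions split into 33 of 49 in CDS, 9 in the 3′ UTR, 2 in the 5′ UTR and 5 outside. Under the reading that takes the 3′ UTR of any isoform first, 24 of 33 members had a repeated peak there, against a background of 69.3%, and 93 of the 217 cytosolic and 22 of the 49 mitochondrial regions were labelled 3′ UTR instead.

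**Figure D2:**
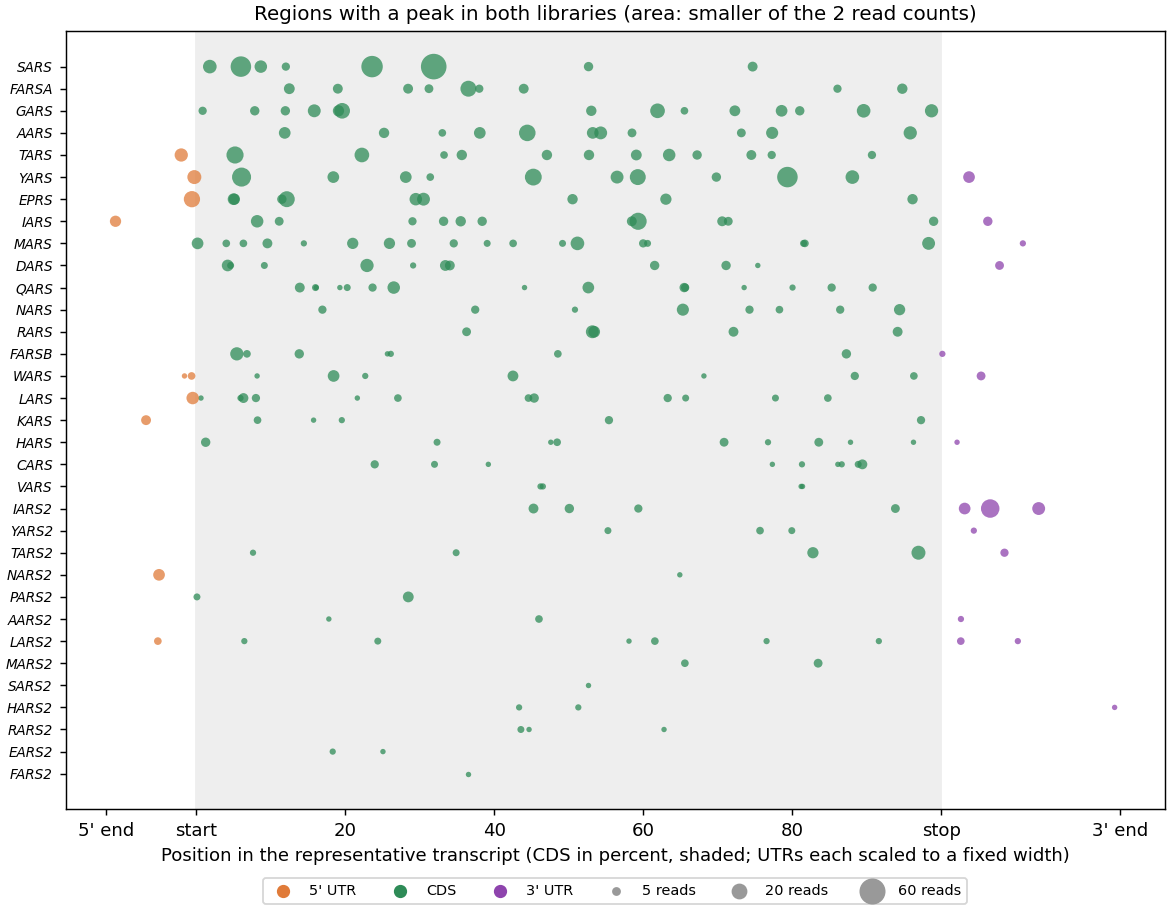
Repeated regions whose summit lies in an exon of the representative transcript, with the CDS scaled from start to stop and each UTR scaled to a fixed width. Rows are genes, cytosolic enzymes above mitochondrial ones, and circle area is the smaller of the 2 read counts. The largest circle of all sits in the SARS CDS, and IARS2 has the largest circle in a 3′ UTR.

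In MARS nearly all of the 3′ UTR label was of this kind. The methionine enzyme charges initiator as well as elongator tRNA. Its gene (chr12, plus strand) had 27 and 23 peaks. With the 3′ UTR of any isoform first, 76.8% (exact 95% binomial interval 70.7 to 82.1) and 76.4% (71.0 to 81.2) of its reads were 3′ UTR reads. With CDS first, these shares were 1.79% (0.489 to 4.51) and 2.46% (0.997 to 5.01). Of 172 and 217 reads labelled 3′ UTR, 168 and 210 lay in the CDS of another isoform, and every one of these also lay in the CDS of the representative transcript MARS-201, which has a CDS of 2700 nt and a 3′ UTR of 68 nt. In peaks, 21 of 22 and 17 of 18 were of this kind.

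Most of the label came from a pair of isoforms. MARS-204, marked for NMD, has a CDS of 420 nt followed by 2531 nt annotated as 3′ UTR, and 162 and 213 reads fell within that stretch. MARS-233, marked as protein-coding, has a CDS of 285 nt and 2272 nt of 3′ UTR, which also held 162 and 213 reads. Of the 35 MARS isoforms, 9 are marked for NMD. Because MARS-233 carries a coding label, leaving out the NMD isoforms, an alternative added after the data had been seen, still gave a 3′ UTR share of 72.3% and 75%.

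Of 19 repeated MARS regions, 15 were labelled 3′ UTR and 14 of those lay in the representative CDS. By the smaller of the 2 counts, the highest (chr12:57511697-57511734, 19 and 22 reads) was in exon 12, at codon 461, and its window is printed above. Another (chr12:57490250-57490308) had 13 and 21 reads in exon 6, and one more (chr12:57516460-57516559) had 17 and 25 reads in exon 21, shortly before the stop codon, and was the highest of the 14 in replicate 2. The 15th, 29 nt after the stop codon (chr12:57516597-57516625), was the only repeated region outside every CDS and held 4 and 7 reads. The 4 regions labelled CDS all lay in the first 10% of the coding sequence, and one of them covered the start codon (chr12:57488075-57488200) with 14 and 29 reads.

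**Figure D3:**
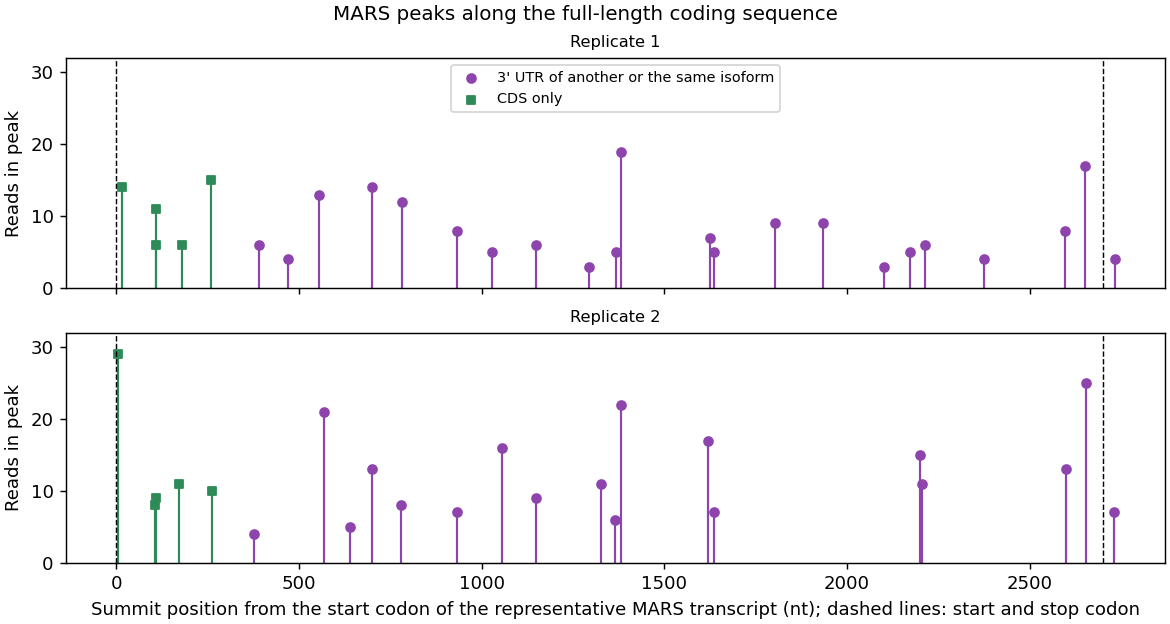
Reads in each MARS peak against the position of its summit, in nt from the start codon of the representative transcript, with replicate 1 above replicate 2. Green squares are summits in CDS only and purple circles are summits inside a 3′ UTR of any isoform. Purple summits run through the coding sequence up to the stop codon, and 1 per library lies beyond it.

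Other members behaved in the same way. Over 50% of the 3′ UTR reads lay in the CDS of another isoform in both libraries in 17 of the 21 members with at least 10 such reads in both, 12 of 14 cytosolic and 5 of 7 mitochondrial, against 26.9% of 5216 protein-coding genes. Pooled, 1155 of 1426 reads (81.0%) and 1412 of 1700 (83.1%) did so, against 37.8% and 38.3% over all protein-coding genes. The share was 88.2% and 90.9% for cytosolic and 45.9% and 54.6% for mitochondrial enzymes. These comparisons made no allowance for the larger number of annotated isoforms of the members. MARS was singled out with earlier results of these data known, so it adds no independent support to these counts.

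The members with the largest 3′ UTR share under the first reading lost most of it under the other. CARS had 96.4% and 100% of reads in 3′ UTRs with the 3′ UTR first, and 0% (0 of 84 reads, which allows up to 4.3%) and 4.6% with CDS first. For RARS the values were 100% and 90.2%, and then 0 of 102 reads in each library, which allows up to 3.55% (exact 95% binomial limit). QARS had 93.0% and 79.4%, and then 0 of 142 and 0 of 175 reads, which allow up to 2.56% and 2.09%. HARS2 had 100% in both, and then 20% and 35.7%, the share in the 3′ UTR of its representative transcript. Single NMD isoforms again spanned most of these reads: CARS-215 (81 and 87 reads after a CDS of 384 nt), QARS-205 (132 and 139 after 300 nt), RARS-204 (88 and 92 after 387 nt) and TARS-210 (183 and 231 after 168 nt). In both libraries, 11 of 33 members had over 50% of their reads in the 3′ UTR with the 3′ UTR first, against a background of 29.3%, and 0 of 33 with CDS first, against 14.3%.

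**Figure D4:**
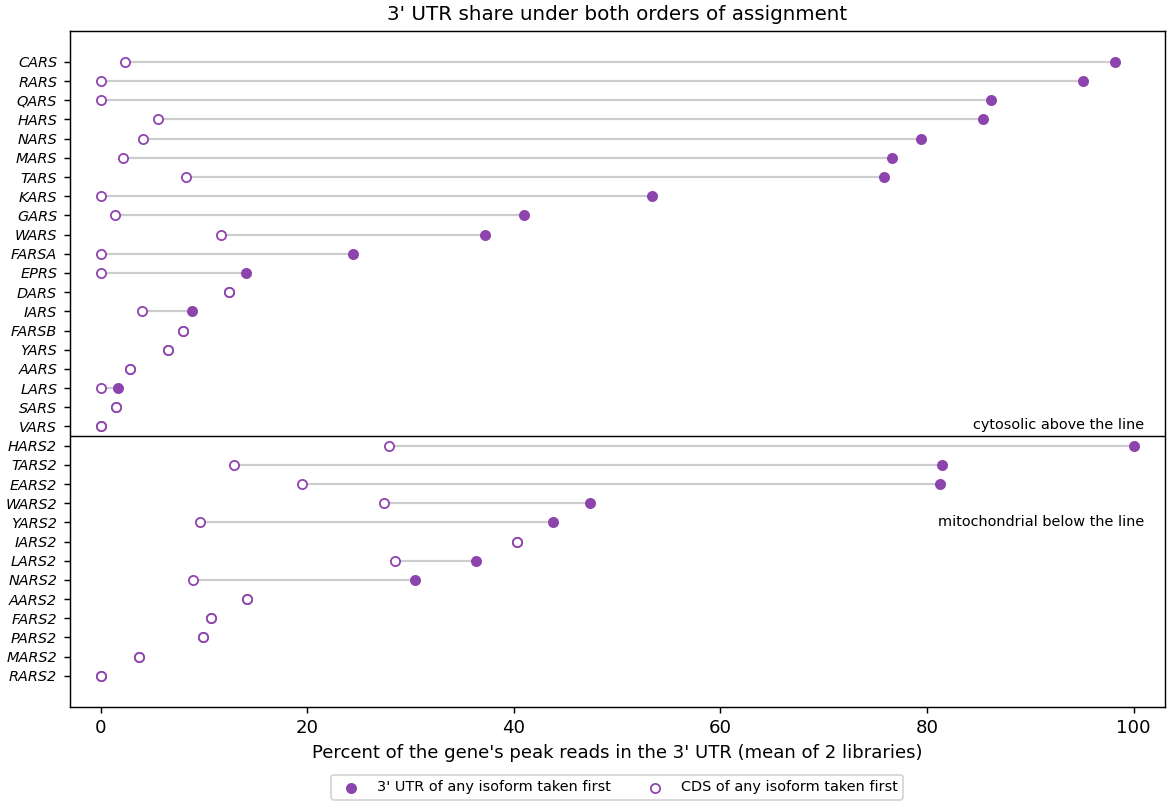
Percent of each member's peak reads in the 3′ UTR, as the mean of 2 libraries, for the 33 members with at least 10 reads in both. Filled points take the 3′ UTR of any isoform first and open points take the CDS first. CARS, RARS, QARS, HARS and MARS have filled points over 70% and open points under 10%, and IARS2 does not move from 40.3%.

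The class comparison of 3′ UTR shares turned on this choice. With the 3′ UTR first, the class medians averaged 29.99% ± 1.04 for cytosolic and 32.3% ± 9.28 for mitochondrial enzymes (SD, n = 2 libraries), a difference smaller than the spread between libraries. On the representative transcript they were 0.616% ± 0.871 for cytosolic and 9.18% ± 0.350 for mitochondrial enzymes, against 13.5% for all protein-coding genes. Pooled over the representative transcripts, 3.52% and 2.38% of cytosolic reads lay in the 3′ UTR, which is 14.9% of the length, against 19.05% and 19.7% of mitochondrial reads, where it is 23.7% of the length. One gene carried much of the mitochondrial value: without IARS2 the mitochondrial share was 11.8% and 13.6%. A repeated peak in the representative 3′ UTR was present in 13 of 33 members (7 of 20 cytosolic and 6 of 13 mitochondrial), against a background of 52.5%.

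IARS2 was the member with the most 3′ UTR signal that no isoform reads as CDS. It had 66 of 158 and 77 of 198 reads there, a share of 41.8% (34.0 to 49.9) and 38.9% (32.1 to 46.1), while its 3′ UTR of 406 nt is a small part of the transcript. Its share of reads exceeded the share of length in both libraries, as in no other of the 33 members and in 15.8% of protein-coding genes. The reads fell in 3 repeated regions in the last exon. The middle one, 109 nt after the stop codon (chr1:220147718-220147765, window printed above), had 35 and 45 reads. The ones at 51 nt and 219 nt had 14 and 15, and 17 and 17 reads.

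The other repeated 3′ UTR regions were smaller. YARS had 14 and 19 reads at 113 nt after its stop codon, IARS 15 and 9 at 154 nt and TARS2 13 and 7 at 188 nt. Those in WARS, LARS2, AARS2, YARS2, FARSB, HARS, HARS2 and MARS held at most 9 reads in a library. Short elements in 3′ UTRs are known to bring CCR4-NOT to mRNAs through RNA-binding proteins or microRNAs. The Pumilio element UGUANAUA, searched on the transcript strand, occurred once each in IARS2, MARS2, TARS2 and WARS2, and 28.2% of 8761 protein-coding genes held it. In IARS2 it lies 183 nt after the stop codon, between the peak regions, and none of the 4 sites was under a peak in both libraries. The AU-rich heptamer UAUUUAU was present in FARSA and WARS2 (31.7% of the genes), and neither site was under a peak in either library. Seed matches were found for the miR-17 family (GCACUUU) and for let-7 (CUACCUC) in 4 members each, and for the miR-92 family (UGCAAUA) in 1 member, with no site under a peak in both libraries. Of the same protein-coding genes, 21.1%, 9.41% and 11.3% held such matches. No member held the miR-101 match GUACUGU, which 11% of those genes held. No allowance was made for the length of the 3′ UTR. How often such sites lie under a peak over all protein-coding genes is not given here, so the absence of covered sites cannot be read as a trait of the members.

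In all, 10 repeated regions lay in a representative 5′ UTR, in 9 genes. Among members with at least 10 reads in both libraries, 8 of 33 had a repeated summit there in each library, against a background of 25%. By the smaller of the 2 counts EPRS came first, 12 nt before the start codon, with 27 reads in each library. Also near the start codon were YARS at 16 nt before it (29 and 20 reads), TARS at 20 nt (27 and 18) and LARS at 6 nt (16 and 24). The LARS summit lay in the 5′ UTR in replicate 2 only, so LARS is not among the 8 members counted above. Farther upstream were IARS at 240 nt (13 and 19 reads) and NARS2 at 155 nt (14 and 37), and NARS2 had the most 5′ UTR signal among the mitochondrial genes. KARS had 10 and 11 reads at 68 nt before the start codon of its representative, a place that is CDS in another coding isoform. WARS had 6 and 11 reads at 30 nt.

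A repeated peak within 50 nt of the start codon was present in 9 of 33 members (EPRS, GARS, HARS, LARS, MARS, SARS, TARS, YARS and, as the only mitochondrial gene, PARS2), against 23.8% of protein-coding genes. Around the stop codon there were 5 of 33 (FARSB, GARS, HARS, IARS and MARS) against 15.5%, so both counts are near the background.

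Within the CDS, the place with the most reads in both libraries belonged to SARS. Its region in exon 5 (chr1:109230877-109230981) had 67 and 80 reads. Its region in exon 4 (chr1:109229463-109229573) had 49 and 47 reads, and the one in exon 1 (chr1:109214053-109214129) had 45 and 43. With the CDS cut into 5 equal parts from the start codon, the part next to the start codon held 33.1% and 34.8% of SARS CDS reads and the one after it 52.6% and 52.5%, so little was left for the other 3. YARS had 52 and 43 reads in exon 11 (chr1:32780113-32780271) and 37 and 39 in exon 2 (chr1:32810910-32811058). TARS had 30 and 54 reads at codon 40, IARS 30 and 37 at codon 749, AARS 30 and 28 at codon 431 and FARSA 26 and 39 at codon 201. All of these were found in both libraries. TARS2 had 20 and 32 reads at codon 697, near the end of its CDS, and its final 20% held 61.1% and 50% of its CDS reads.

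Peaks covered 52.8% and 55.4% of the YARS CDS, with 45.8% under peaks of both libraries, the highest values of any member. The median cytosolic gene had 20.5% and 22.9% of its CDS covered and the median mitochondrial gene 7.34% and 7.14%. Coverage was not adjusted for the number of reads. Pooled over genes, the first 20% of the CDS held 27.7% and 25.8% of cytosolic CDS reads, against 14.8% and 12.2% of mitochondrial and 22.2% and 22.3% of all protein-coding CDS reads. The last 20% held 15.3% and 16.7% of cytosolic, 19.2% and 29.6% of mitochondrial and 17.8% and 18.3% of all protein-coding CDS reads. The cytosolic profile was alike in both libraries, and the mitochondrial one changed between them.

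**Figure D5:**
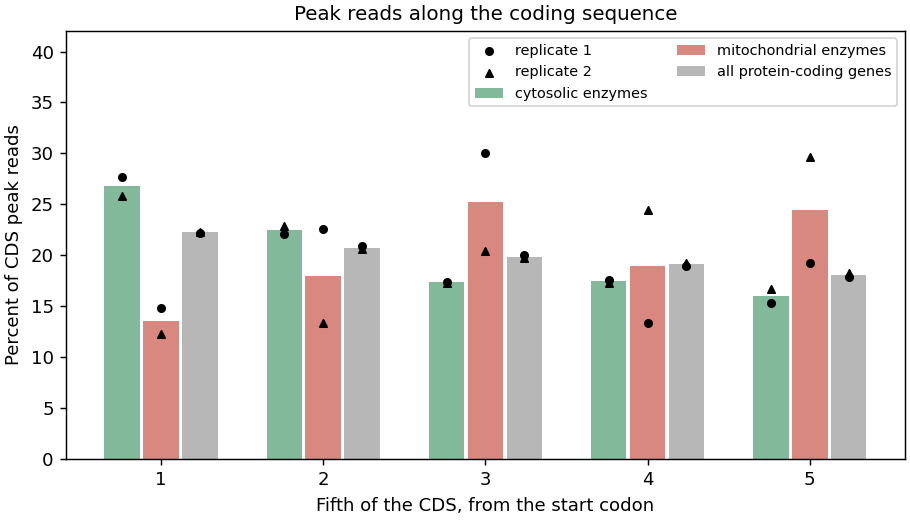
Percent of CDS peak reads in each of 5 equal parts of the coding sequence, counted from the start codon. Bars are means of 2 libraries for cytosolic enzymes (green), mitochondrial enzymes (red) and all protein-coding genes (grey), with circles and triangles for replicates 1 and 2. The part next to the start codon is highest in cytosolic genes at 27.7% and 25.8% and lowest in mitochondrial genes at 14.8% and 12.2%.

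Codons for aspartate, glutamate and lysine made up a median of 29.4% and 23.5% of the 17 codons around the strongest CDS summit of 32 members, against 19.7% of their whole CDS. Over 7802 protein-coding genes these values were 23.5% and 23.5%, against 18.1%. The window was above the gene's own CDS in both libraries in 22 of 32 members (14 of 20 cytosolic and 8 of 12 mitochondrial), against a background of 50.9%. FARSA had 41.2% in both libraries against 18.1% of its CDS, and EPRS 35.3% in both against 23.6%, and some of these codons are the capitals of the windows above. GARS lay below its CDS in both libraries, with 5.88% and 17.6% against 20.4%. TARS (5.88% and 41.2% against 22.6%) and MARS (35.3% and 9.09% against 16.8%) fell on both sides, because the strongest summit differed between the libraries. Windows near the start of the CDS were cut there and held fewer than 17 codons, as for MARS in replicate 2. With 9 codons instead of 17 the count was 17 members, against a background of 48.4%, and with all summits of a gene it was 29, against 63.1%.

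Reads outside the exons of a member were few, and some lay where other RNAs are annotated. Which RNA such reads came from was not tested. IARS had 40 and 40 reads in an intron that holds the small nucleolar RNA SNORA84 and the microRNA MIR3651, which the lists also give as genes of their own with 25 and 27 and with 9 and 11 reads. SARS had 11 and 15 reads at chr1:109215185-109215210 in an intron with no other gene listed. All 17 and 41 reads of MARS2 were listed a second time under AC011997.1, an entry of the antisense type, so the source of the MARS2 reads is uncertain. The same holds for the 8 reads of SARS2 in replicate 1 and 13 of its 45 in replicate 2 (AC011455.2) and for 9 and 6 reads of WARS2 (RBMX2P3, a pseudogene), for 5 reads of VARS2 in replicate 1 (GTF2H4) and for 3 reads of HARS2 in each library (ZMAT2). The shared HARS2 peak is its single repeated region in the representative 3′ UTR, so 1 of the 13 members with such a region rests on shared reads. Of 14 pseudogene copies named after members, GARSP1 (0 and 4 reads) and RARSP1 (3 and 3) had any peak.

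Of 18 other genes of tRNA charging and delivery, 17 had peaks in both libraries, 15 had a repeated CDS peak and 5 a repeated 3′ UTR peak. Among protein-coding genes with at least 10 reads in both libraries, 78.1% had a repeated CDS peak and 52.5% a repeated 3′ UTR peak. The 18 genes were not held to that minimum, so the counts and these shares are not on equal terms. The scaffold proteins of the complex had 46 and 44 (AIMP1), 75 and 70 (AIMP2) and 126 and 123 reads (EEF1E1). Per kb of all annotated exons EEF1E1, at 59.8 and 58.4, lay above each enzyme it is bound with. Levels per kb of the representative transcript were not compared here. EEF1A1, which brings charged tRNA to the cytosolic ribosome, had 1452 and 1321 reads (244 and 222 per kb), and TUFM, its mitochondrial counterpart, 358 and 290 (158 and 128 per kb). DTD1, which removes D-amino acids from tRNA, had 216 and 254 reads. SEPSECS, which makes selenocysteine on its tRNA, was the gene with no peak in either library.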

How the data were processed

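Small RNA libraries of cytoplasmic RNA from HEK293T cells were sequenced, and the authors deposited 1 peak list per library, called in each library on its own. Per the submitters' processing notes, cutadapt 4.2, UMI-tools 1.1.4 and STAR 2.7.11 were used with GRCh38, whose order and roles are not stated. Per the deposited file names the peaks came from CLIPper, with a release and gene models not given in the sources used here. Column 5 as deposited is a p-value per peak with no stated adjustment. The deposited peak names hold the gene identifier and a whole number of reads, at least 3 and not normalised. Total sequenced reads are unknown here. A read can enter several peaks, gene entries or loci.

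Of 20048 identifiers, 19811 were in GENCODE 29. The middle of the thick interval was the summit, assigned on the same strand within its own gene to the 3′ UTR of any isoform, then CDS, 5′ UTR, exon and intron. Reads per kb used the union of all exons. Shares per gene needed 10 reads. Groups were compared by medians and counts, without p-values, since there is 1 group of samples and genes are not replicates. Named in depth were MARS, the 8 cytosolic and 5 mitochondrial members with the most reads per kb, the 4 with the highest 3′ UTR share, members that differed by over 1.5 times between libraries and those without a repeated region. Members and lists were chosen with earlier results of these data known. Alternatives were another order of regions, the representative transcript, p at or under 1e-05, other read minimums, other overlaps and each library alone. Assignment within the representative transcript and the overlap of intervals were checked on simulated positions. The order of regions among several isoforms was not checked in this way. The software was pandas 2.3.3, numpy 2.4.6, matplotlib 3.10.9 and scipy 1.17.1 under Python 3.11.15. One repeated 3′ UTR region is not reported here.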

Additional observations from a re-analysis of the deposited data

How the results depend on the processing

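Of 45 values under alternative settings, 24 stayed within the spread between libraries or within 1.5 times of the count, 19 moved and 2 changed sign. For shares and ratios, a single library always lies within that spread, so its value could not be labelled as moved. The minimum of 3 reads could not alter the ratio of reads per kb, since no member had fewer. The count of 24 is therefore no measure of stability. The ratio of cytosolic to mitochondrial reads per kb (3.37) was 2.38 over genes with at least 20 reads and ran between 2.73 and 4.01 in single libraries. With the length of the representative transcript it was 4.16. With peaks at p at or under 1e-05 no ratio could be had, since the mitochondrial median was 0 in each library (11 and 9 of 16 genes had no such peak), against cytosolic medians of 23.8 and 28.5. The class difference in 3′ UTR share, cytosolic minus mitochondrial, was -2.33 percentage points. It was 11.9 ± 34.97 (SD, n = 2 libraries) with the stricter p, -8.56 ± 1.22 on the representative transcript, -10.3 with protein-coding isoforms, -2.62 with at least 3 reads, -11.9 with CDS first, -10.6 with at least 20 reads, -11.8 without GARS and KARS, and between -8.16 and 3.50 in single libraries, so its sign was negative in all but the stricter p and replicate 1 alone; the cause was not tested. The members' 3′ UTR share (35.4%) was 31.3% with the stricter p, 6.36% with CDS first, 5.70% on the representative transcript and 11.03% with protein-coding isoforms, a setting added after the data had been seen. The CDS share (57.1%) was 61.1%, 86.2%, 85.7% and 81.5% under these settings, and the MARS 3′ UTR share (76.6%) was 73.1%, 2.13%, 2.13% and 73.7%. The shifts other than with the stricter p follow from which isoform is read at a place; for the stricter p the cause was not tested. Single libraries gave 34.9% to 35.98%, 56.7% to 57.5% and 76.4% to 76.8%. Repeated peaks (62.6%) were 53.1% with an overlap of at least 50% of the peak and 68.8% with the stricter p, which also lowered the median CDS coverage to 6.23% from 13.3%. The codon count was 28 of 32 in replicate 1 alone, against 65.8% of protein-coding genes, and 24 of 32 in replicate 2 alone, against 66.6%. The start codon count was 7 of 33 within 25 nt, a window added later, against 13.8%. No paired analysis was possible because there is a single group. Shares of genes with few reads are coarse.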
